A study of Drosophila melanogaster with 6 samples.

Results

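The genes described here build the contractile apparatus of Drosophila muscle. A list of 36 genes was used: actins, tropomyosins, troponins, myosin chains, thick filament proteins, elastic giants, Z-disc proteins, and a few genes for calcium uptake, energy supply, attachment and muscle gene control. In the platform annotation, brought to current symbols, 29 of the 36 had a probe set with 1 gene symbol, out of 10843 genes measured in all. Unc-89 is given under its current symbol Obsc and Argk under Argk1. Act57B, Mhc, Tm1, wupA, TpnC47D, TpnC25D and Mef2 were not analysed here. The list is wider than its name. The integrins if and mys and the nesprin Msp300 also act outside the sarcomere, at attachment sites and nuclei, and in other tissues as well.

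A sarcomere slides thin filaments of actin past thick filaments of myosin. Tropomyosin and the troponin complex hold the thin filament off until calcium binds troponin C, and the pump SERCA then takes the calcium back into the reticulum. Drosophila uses separate actin and troponin C genes in different muscles, so larval body wall muscle and adult flight muscle, which forms in the pupa, differ in the isoforms they make.

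RNA of larvae in the last larval instar was measured on 6 single-colour Affymetrix arrays. The mutant larvae were homozygous mutants of the gene maleless (mle/mle, 3 arrays), and the labels describe them as males, sorted by phenotype from larvae that carried mle over T(2-3)Tb. The control larvae were wild type, of a strain the labels write as cancon S (3 arrays), with no sex given. Maleless protein, an RNA helicase, belongs to the complex that raises transcription of the single X chromosome of males. The titles call the arrays of a group biological replicates, and the labels give neither the allele nor the number of larvae behind each array. As sex and strain are stated for 1 group each, genotype, sex and strain cannot be told apart.

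All values below are the authors' deposited log2 RMA signals, 1 per probe set. Where a gene had several probe sets, the one with the highest mean over the 6 arrays stood for it. A change is mle/mle minus wild type on the log2 scale, tested with limma over all 13966 probe sets, and a call needs an adjusted p under 0.05. Correlations between arrays lay between 0.987 and 0.997, and array medians between 6.89 and 6.92. In RNA of whole larvae, fewer muscle cells and less RNA per muscle cell cannot be told apart.

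None of the 29 measured muscle genes was shown to differ between mle/mle and wild type larvae. With 3 arrays per group this does not show that they are equal. Limma called 0 of the 29 genes in either direction, where it called 0.0215% of all probe sets as higher and 0.0358% as lower. At an unadjusted p under 0.05 there were also 0 of 29, against 2.98% of all probe sets higher and 1.35% lower. In this fit, which held the group only, the smallest unadjusted p was 0.118, for the calcium pump SERCA, and every adjusted p by limma was 0.9997. With the replicate number as a block, the smallest unadjusted p by limma was 0.0545, for TpnC73F. In all 29 genes the values of the groups overlapped on the chosen probe set, whereas 8.36% of all probe sets had groups free of overlap. Changes ran from -0.23 for Mlp84B to 0.26 for SERCA, with a median of 0.013 over the 29 genes and 0.007 over all probe sets. A positive change was seen in 15 of the 29 genes and in 53.7% of all probe sets.

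The 95% interval of limma reached from 0.18 to 0.57 on either side of the change, depending on the gene. For 24 of the 29 genes the whole interval lay between -0.5 and 0.5, and for all 29 it lay between -1 and 1. Dim probe sets show compressed changes after RMA, so the intervals of the dim genes bound the change of the signal and not that of the RNA. The median of 0.013 was smaller than the spread between arrays and turned sign with the processing, to -0.024 after quantile normalization. Without mle/mle replicate 3 the median was -0.048, without mle/mle replicate 2 it was 0.085, and without wild type replicate 1 it was -0.009.

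**Figure D1:**
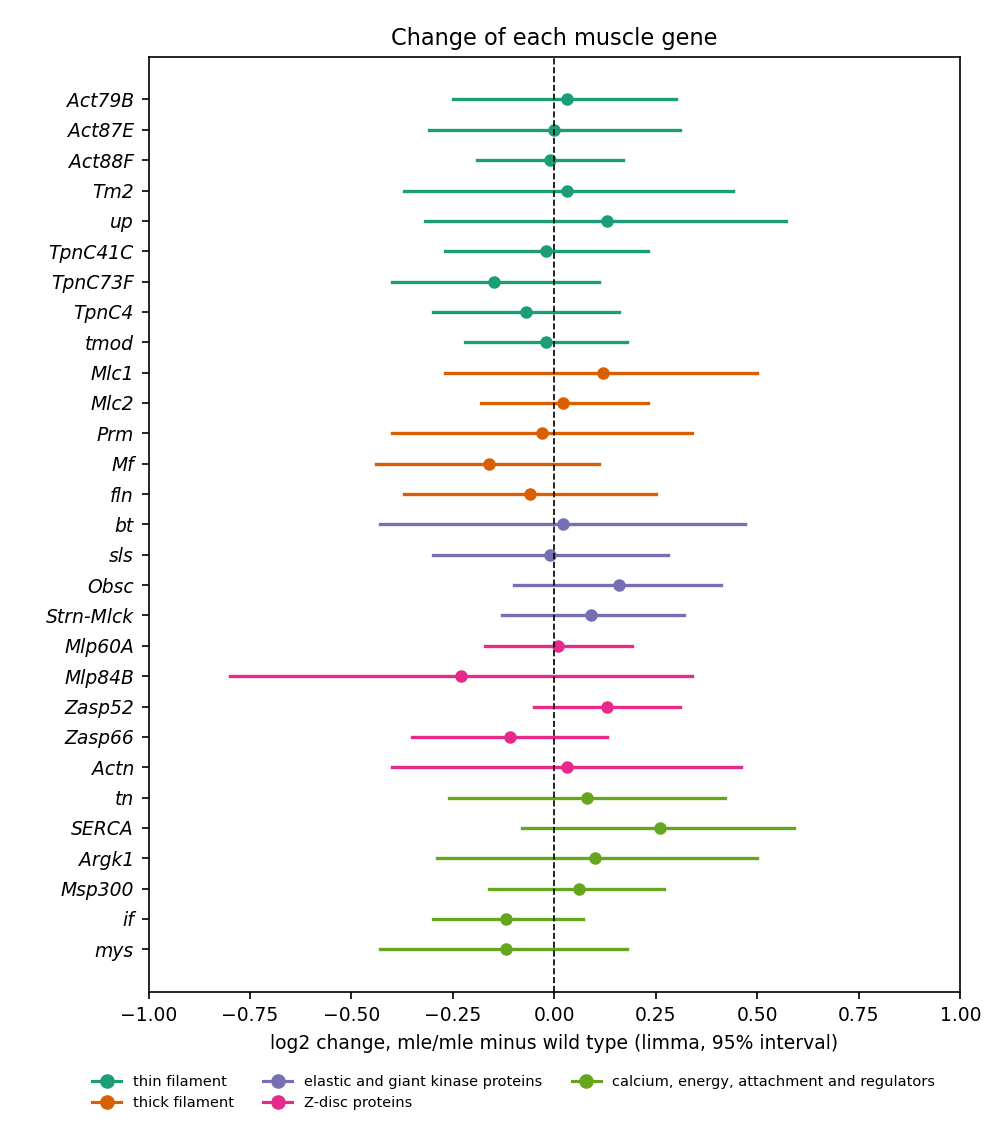
Log2 change of each of the 29 muscle genes, mle/mle minus wild type, with the 95% interval of limma (3 arrays per group), coloured by role. Every interval crosses 0, and the points run from -0.23 for Mlp84B to 0.26 for SERCA.

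Most of the measured genes that define muscle were bright in every sample. Signals of 21 genes lay above the upper quartile of all probe sets on each of the 6 arrays (an upper quartile of 7.91 to 7.96). Among them were the defining muscle genes Mlc1, Mlc2, Tm2, up and Prm. The defining gene bt fell below that quartile on mle/mle replicate 2 (7.57) and wild type replicate 2 (7.80). The defining genes Mhc and wupA were not analysed here. Signals of 4 genes lay below the lower quartile on each array (5.80 to 5.84). These 4 were Act88F, TpnC4, TpnC41C and fln, all known from adult muscle. Brightness of a probe set also depends on its probes, and the tables hold no detection calls, so none of the 4 can be called absent.

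Actins form the thin filament, and 3 muscle actin genes were measured. Act87E, an actin of larval body wall muscle, read 11.87, 11.42 and 11.91 in mle/mle replicates 1, 2 and 3, against 11.62, 11.80 and 11.79 in wild type. The mle/mle array of replicate 2 was the lowest of the 6 and the other mle/mle arrays the highest, so the wild type values lay inside the mle/mle range. The fold was 0.998, with a 95% interval from 0.804 to 1.24. Act79B, an actin of adult thoracic and leg muscle, read 10.35, 10.15 and 10.47 in mle/mle and 10.27, 10.12 and 10.50 in wild type, a change of 0.03 (SE 0.12). Both genes are read by probe sets whose names carry the suffix that Affymetrix gives to sets shared by a gene family. Actin genes are close to identical in their coding sequence, so neither signal can be assigned to 1 actin gene, and the brightness of Act79B does not show adult actin in these larvae.

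Act88F, the actin of the indirect flight muscle, has a probe set without that suffix. It read 4.95, 5.06 and 5.07 in mle/mle and 5.07, 4.93 and 5.10 in wild type. Both groups stayed dim on every array and differed by -0.01 (95% interval -0.19 to 0.17).

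Troponin C binds the calcium that starts contraction. TpnC73F, a troponin C of larval muscle, read 11.05, 10.83 and 11.07 in mle/mle, against 11.21, 10.93 and 11.26 in wild type. It was lower in mle/mle in each of the 3 same-numbered pairs, by -0.17, -0.10 and -0.18, while the groups overlapped. The change of -0.15 (SE 0.11, 95% interval -0.40 to 0.11) did not pass, and with the replicate number as a block the adjusted p by limma was 0.715, the smallest of the 29 genes. The adult troponin C genes stayed dim. TpnC4, made in flight muscle, read 3.73, 3.90 and 3.72 in mle/mle and 3.80, 4.03 and 3.73 in wild type. TpnC41C, an adult isoform, read 4.86, 5.20 and 4.82 in mle/mle and 5.04, 4.98 and 4.92 in wild type. Their changes were -0.07 (SE 0.10) and -0.02 (SE 0.11).

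The remaining thin filament genes are tropomyosin Tm2, troponin T, encoded by up, and the filament cap tropomodulin, encoded by tmod. Tm2 read 10.61, 10.10 and 10.87 in mle/mle, against 10.42, 10.45 and 10.62 in wild type. up read 11.56, 11.03 and 11.86 in mle/mle, against 11.36, 11.20 and 11.52 in wild type. In both genes mle/mle held the lowest and the highest of the 6 arrays. Changes were 0.03 (SE 0.18) for Tm2 and 0.13 (SE 0.19) for up. A second, dimmer probe set of up changed by 0.09, with no overlap between the groups and no call. The changes of tmod and of its other probe sets stayed between -0.02 and 0.02. Over the 9 measured thin filament genes 3 changes were positive, with a median of -0.006.

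**Figure D2:**
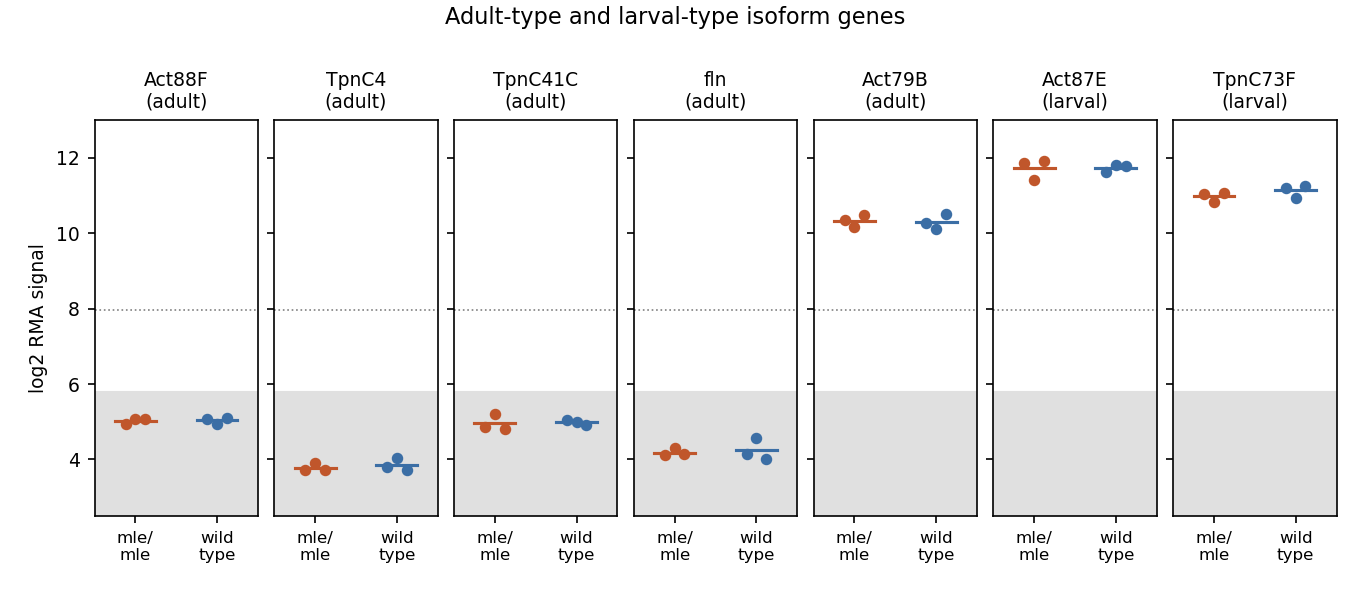
Log2 RMA signal of each array (points) and group mean (bars) for 5 adult-type and 2 larval-type genes, mle/mle left and wild type right. The grey area lies below the lower quartile of all probe sets and the dotted line marks the upper quartile. Act88F, TpnC4, TpnC41C and fln sit in the grey area on all 6 arrays in both groups, while Act79B, read by a probe set shared by the actin family, sits above the line with Act87E and TpnC73F.

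These probe sets give a weak reading of any shift between adult-type and larval-type isoforms. Both bright actin signals may be shared between actin genes and the other adult-type genes were dim, which leaves TpnC73F as the only bright isoform that can be assigned to 1 gene. The median change was -0.02 over the 5 adult-type genes Act79B, Act88F, TpnC41C, TpnC4 and fln, and -0.08 over the 2 larval-type genes Act87E and TpnC73F. Of these, fln is neither an actin nor a troponin C and has no larval-type counterpart here, so the contrast is not purely one of isoforms. Per array, the median of adult-type genes minus that of larval-type genes, each centred on the gene's mean, was -0.15, 0.35 and -0.16 in mle/mle and -0.04, 0.05 and -0.18 in wild type. The mean was 0.01 ± 0.29 in mle/mle and -0.06 ± 0.11 in wild type (SD, n = 3 each), so the spread exceeded the difference. On mle/mle replicate 2, where this value was 0.35, Act87E and TpnC73F had their lowest signals of the 6 arrays and TpnC41C its highest. The difference between the 2 medians of change, 0.055, turned to -0.156 without mle/mle replicate 2, to -0.020 without wild type replicate 3 and to -0.047 without replicate 2 of both groups.

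Myosin heads on the thick filament carry an essential and a regulatory light chain. The essential chain Mlc1 read 12.02, 11.40 and 12.07 in mle/mle, against 11.62, 11.74 and 11.77 in wild type. Of the mle/mle arrays, replicates 1 and 3 lay above every wild type array and replicate 2 below every one. The change was 0.12 (SE 0.17, 95% interval -0.27 to 0.50). The regulatory chain Mlc2 showed the same order of groups at a smaller scale, with 13.75, 13.48 and 13.74 in mle/mle and 13.65, 13.62 and 13.62 in wild type, a change of 0.02 (SE 0.09).

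Paramyosin and myofilin, encoded by Prm and Mf, lie in the core of the thick filament. Prm read 10.90, 10.50 and 11.14 in mle/mle and 10.70, 10.90 and 11.03 in wild type, a change of -0.03 (SE 0.16). Mf read 10.94, 10.53 and 10.95 in mle/mle, against 10.90 to 11.02 in wild type, a change of -0.16 (SE 0.12). Most of that difference lay in 1 array, since it was -0.03 without mle/mle replicate 2. Flightin, encoded by fln and known from flight muscle thick filaments, read 4.11, 4.29 and 4.15 in mle/mle and 4.14, 4.56 and 4.02 in wild type. Its change of -0.06 turned to 0.15 in the authors' PLIER table, with no call. The 5 measured thick filament genes had 2 positive changes and a median of -0.028, which was 0.111 without mle/mle replicate 2.

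Elastic proteins and giant kinases link the filaments. Obscurin, encoded by Obsc, read 9.19, 8.89 and 9.27 in mle/mle, against 8.91, 9.07 and 8.91 in wild type. Again replicates 1 and 3 of mle/mle were above all wild type arrays and replicate 2 was below them, with a change of 0.16 (SE 0.11, 95% interval -0.10 to 0.41). The other 3 probe sets of Obsc changed by 0.01 to 0.11. Projectin, encoded by bt on chromosome 4, read 8.24, 7.57 and 8.31 in mle/mle and 8.16, 7.80 and 8.12 in wild type, a change of 0.02 (SE 0.20). Its other probe set changed by -0.06. The titin-like protein of sls changed by -0.01 and its other 3 probe sets by 0.02 to 0.04. Strn-Mlck, a stretchin and myosin light chain kinase gene, changed by 0.09 (SE 0.10) and its other probe sets by 0.06 and -0.03. None of these probe sets passed the test.

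Z-discs anchor the thin filaments. Mlp84B, a LIM domain protein of the Z-disc, had the widest spread of the 29 genes. It read 10.49, 9.95 and 10.95 in mle/mle, against 10.56, 10.48 and 11.04 in wild type. Each of the 3 pairs had the lower value in mle/mle, by -0.07, -0.53 and -0.09, and most of its change of -0.23 (SE 0.25, 95% interval -0.80 to 0.34) came from replicate 2. Without mle/mle replicate 2 the change was 0.03. Alpha-actinin, encoded by Actn, read 10.52, 10.19 and 10.98 in mle/mle and 10.40, 10.48 and 10.71 in wild type, a change of 0.03 (SE 0.19). Zasp66, a PDZ protein that binds alpha-actinin, changed by -0.11 (SE 0.10), and the LIM gene Mlp60A by 0.01 (SE 0.08).

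Zasp52, another PDZ and LIM protein of the Z-disc, was read by 3 probe sets that changed to unequal degrees. The brightest, 147263_at, read 9.16, 9.10 and 9.23 in mle/mle, against 8.94, 9.11 and 9.05 in wild type. This is a change of 0.13 (SE 0.08, 95% interval -0.05 to 0.31), with the groups just overlapping. Probe set 147262_at read 8.36, 8.00 and 8.67 in mle/mle, against 7.88, 8.07 and 8.28 in wild type, a change of 0.27 (SE 0.17, 95% interval -0.13 to 0.66). Probe set 147264_at read 8.57, 8.07 and 9.01 in mle/mle, against 7.86, 8.18 and 8.17 in wild type, a change of 0.48 (SE 0.21, 95% interval -0.01 to 0.98, adjusted p = 0.9997 by limma). Its values in replicates 1 and 3 of mle/mle lay above all wild type arrays, and replicate 2 lay among them. For 147264_at, leaving out mle/mle replicate 3 gave 0.25 and leaving out mle/mle replicate 2 gave 0.72 (adjusted p = 0.111 by limma), the lowest and highest values on leaving out single arrays, none of them called. Without replicate 2 of both groups, a setting with 2 arrays per group that called 453 probe sets against 8 on all arrays, 147264_at was higher in mle/mle by 0.78 (SE 0.15, adjusted p = 0.0288 by limma). There 147263_at differed by 0.20 and 147262_at by 0.43, neither of them called. The gene gives rise to many splice forms, and the sources used here do not give which of them each probe set reads.

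The last group serves calcium, energy and attachment. SERCA read 10.28, 9.85 and 10.46 in mle/mle, against 9.86, 10.01 and 9.95 in wild type. Replicates 1 and 3 of mle/mle exceeded every wild type array, and replicate 2 was the lowest array of all. The change of 0.26 (SE 0.15, 95% interval -0.08 to 0.59) corresponds to a fold of 1.19. Leaving out mle/mle replicate 3 gave 0.12 and leaving out mle/mle replicate 2 gave 0.43, with a call in neither. In the authors' PLIER table it was 0.23, made up of 0.11 within the array code of 4 arrays and 0.46 within that of 2. Arginine kinase, encoded by Argk1, which buffers ATP in muscle, read 11.87, 11.29 and 12.02 in mle/mle, against 11.59, 11.60 and 11.69 in wild type. Replicates 1 and 3 of mle/mle again lay above every wild type array and replicate 2 below, and its change was 0.10 (SE 0.17). Its other probe set changed by 0.05.

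The integrin subunits if and mys had changes of -0.12 each (SE 0.08 and 0.13), and neither passed. The alpha subunit if read 5.97, 5.89 and 6.09 in mle/mle, against 6.07, 6.08 and 6.16 in wild type, with mle/mle replicate 2 again the lowest array. The beta subunit mys read 8.46, 8.74 and 8.69 in mle/mle, against 8.72, 8.53 and 9.02 in wild type, with mle/mle replicate 1 the lowest. The ubiquitin ligase gene tn, needed to keep myofibrils intact, read 9.11, 9.24 and 9.38 in mle/mle and 9.24, 8.82 and 9.41 in wild type. Msp300, which positions muscle nuclei, changed by 0.06 (SE 0.09) and its other probe sets by 0.15 and 0.09.

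**Figure D3:**
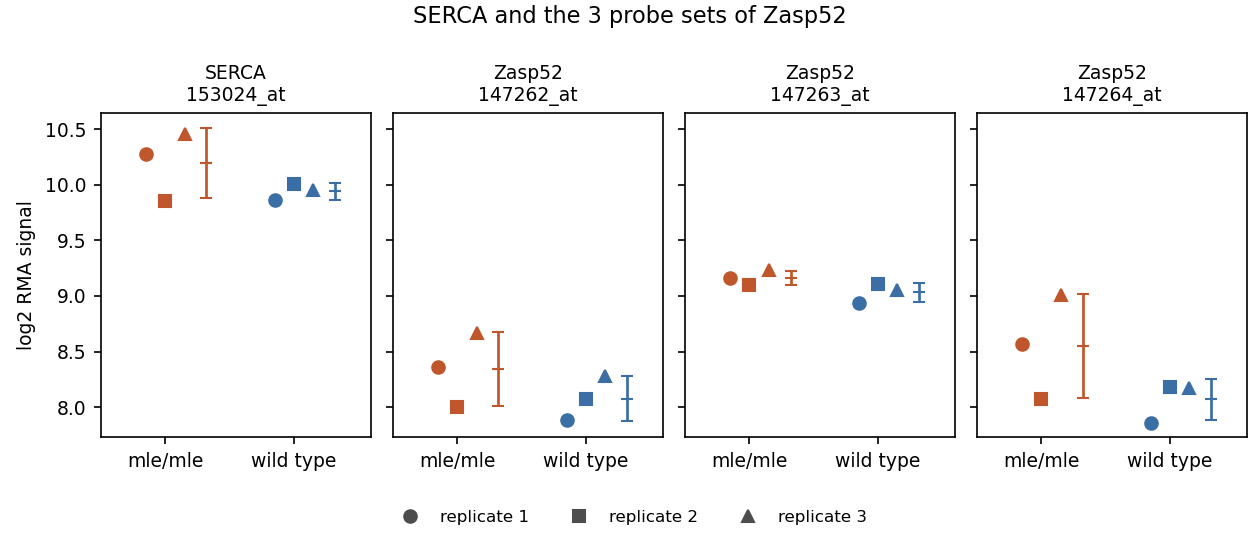
Log2 RMA signal of SERCA and of the 3 probe sets of Zasp52 on each array, mle/mle left and wild type right, with symbols for the replicate number and bars for the mean and SD (n = 3). In SERCA and 147264_at, mle/mle replicates 1 and 3 lie above all wild type arrays and replicate 2 does not.

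Members varied between arrays of 1 genotype, and by the median SD more so within mle/mle. Array mle/mle replicate 2 was the lowest of the 6 arrays in 15 of the 29 genes, and it was the lowest in 12.9% of all probe sets. Array mle/mle replicate 3 was the highest in 14 of the 29, and in 14.2% of all probe sets. The median over members of the signal centred on each gene's mean was 0.04, -0.15 and 0.15 in mle/mle replicates 1, 2 and 3, and -0.07, -0.03 and 0.07 in wild type. Over all probe sets the same medians stayed between -0.02 and 0.03. The median SD of a member between replicates was 0.164 in mle/mle and 0.107 in wild type, against 0.093 and 0.108 over all probe sets. The SD was larger in mle/mle in 18 of the 29 members, and in 43.6% of all probe sets. Members share these arrays and are not independent of each other, so these counts describe 6 arrays and carry no test.

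Among the 21 members above the upper quartile, mle/mle replicate 2 was lowest in 13, against 16.4% of the 3012 probe sets as bright as that. Replicate 3 of mle/mle was highest in 12 of the 21, against 22.0% of the 3012. Their median SD was 0.211 in mle/mle and 0.107 in wild type, while for the 3012 probe sets it was 0.098 in mle/mle and 0.109 in wild type. The widest mle/mle ranges were 1.0 for Mlp84B, 0.83 for up, 0.79 for Actn, 0.77 for Tm2, 0.74 for bt and 0.73 for Argk1. In wild type the ranges of these genes were 0.56, 0.32, 0.32, 0.20, 0.36 and 0.10. As these genes were picked by their mle/mle range, smaller wild type ranges are favoured by the choice and show no difference in spread. Other members had the wider range in wild type, among them fln (0.18 in mle/mle, 0.53 in wild type), tn (0.27 and 0.58) and mys (0.29 and 0.49). Over all of the 21, the SD was larger in mle/mle in 15, against 46.5% of the 3012. The dim adult genes had other orders, since TpnC41C was highest in mle/mle replicate 2 and fln and TpnC4 were highest in wild type replicate 2.

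**Figure D4:**
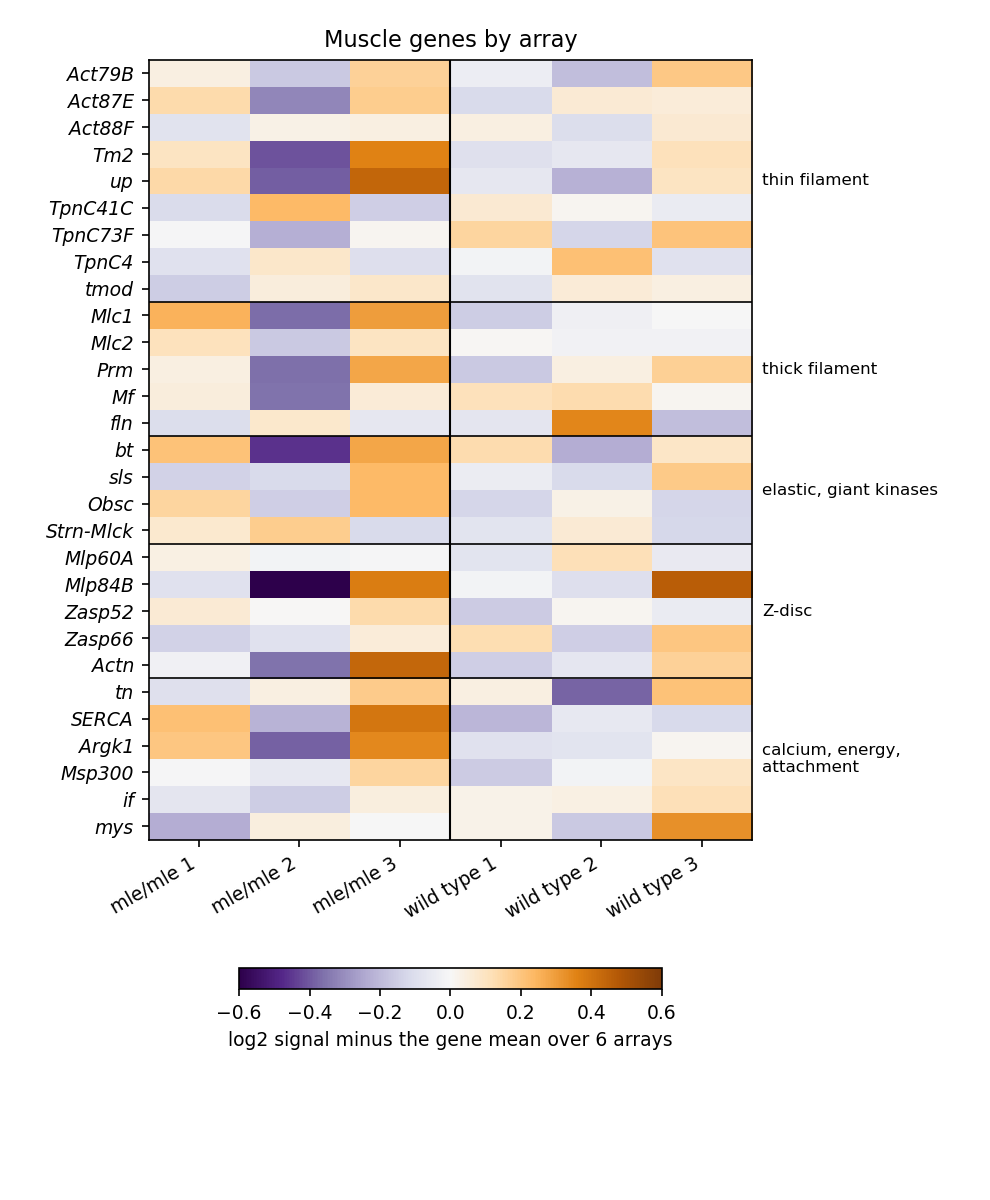
Log2 signal of the 29 muscle genes minus each gene's mean over the 6 arrays, grouped by role, with mle/mle arrays left of the line and wild type arrays right of it. The mle/mle replicate 2 column is low (purple) for most bright genes, and the mle/mle replicate 3 column is high (orange).

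The same-numbered pairs went different ways. The median of mle/mle minus wild type over the 29 genes was 0.086 in pair 1, -0.142 in pair 2 and 0.056 in pair 3, with 16, 8 and 19 positive values. Over all probe sets the medians were 0.014, 0.020 and -0.013. SERCA differed by 0.42, -0.16 and 0.51 in the 3 pairs, Mlc1 by 0.40, -0.34 and 0.29, and Argk1 by 0.29, -0.31 and 0.33. A difference of 1 sign in all 3 pairs was seen in 5 genes: TpnC73F, TpnC4, Mlp84B and if, which were lower in mle/mle, and Strn-Mlck, which was higher. The share of all probe sets with 1 sign in all 3 pairs was not computed, so this count shows no direction particular to the members.

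Results were also read without replicate 2, a choice made with earlier results of these data known. Array mle/mle replicate 2 was the lowest of the 6 arrays in 15 of the 29 genes. Leaving it out raises the mle/mle means of those genes by construction, so the counts below are no separate support for a difference. Without replicate 2 of both groups limma called 1 of the 29 genes as higher and 0 as lower, against 2.24% and 1.0% of all probe sets. The called gene was SERCA, higher in mle/mle by 0.46 (SE 0.09, adjusted p = 0.0275), with 2 arrays per group. At an unadjusted p under 0.05 there were 6 higher members, against 7.1% of all probe sets, and 2 lower, against 6.37%. The higher ones were SERCA, Mlc1 (0.35), Obsc (0.32), Argk1 (0.31), up (0.27) and Zasp52 (0.20), and the lower ones mys (-0.29) and TpnC73F (-0.17). The median change was 0.084 over members and 0.002 over all probe sets. Without mle/mle replicate 2 alone limma called 0 of the 29, against 1.04% of all probe sets in either direction, and 5 members were higher at an unadjusted p under 0.05, against 5.62% of all probe sets. SERCA there had an adjusted p of 0.113.

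Markers of other tissues also moved with the arrays. The 7 measured midgut genes had array medians, on the same centred scale, of 0.26, -0.09 and 0.25 in mle/mle and -0.18, -0.10 and -0.13 in wild type. They did not move together, since 4 changes were positive and 3 negative, from -0.61 to 1.3. Of the 7, 1 was called higher, against 0.0215% of all probe sets. At an unadjusted p under 0.05, 3 were higher and 3 lower, against 2.98% and 1.35% of all probe sets. The 8 hemocyte genes had 0.25, -0.11 and 0.20 in mle/mle and -0.13, -0.09 and -0.18 in wild type. In both lists mle/mle replicate 2 had the lowest median of its group, as it had for the 29 members. The 9 Eig71E genes, which late larval ecdysone signalling turns on, had -0.35, 0.15 and -0.43 in mle/mle and 0.02, 0.70 and -0.13 in wild type, so here replicate 2 was the highest of each group. The 7 salivary gland genes had -0.26, 0.02 and -0.19 in mle/mle and 0.12, 0.10 and 0.19 in wild type. Neuronal genes (7 measured) lay between -0.02 and 0.04 in mle/mle and between -0.03 and 0.07 in wild type. Fat body genes (5 measured) lay between 0.02 and 0.07 in mle/mle and between -0.16 and 0.01 in wild type. Epidermal genes (4 measured) lay between -0.03 and 0.09 in mle/mle and between 0.00 and 0.01 in wild type. At an unadjusted p under 0.05, 3 hemocyte genes and 1 fat body gene were higher, and 3 salivary gland genes and 1 Eig71E gene lower. The part of other tissues and of larval age in the muscle values was not tested.

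**Figure D5:**
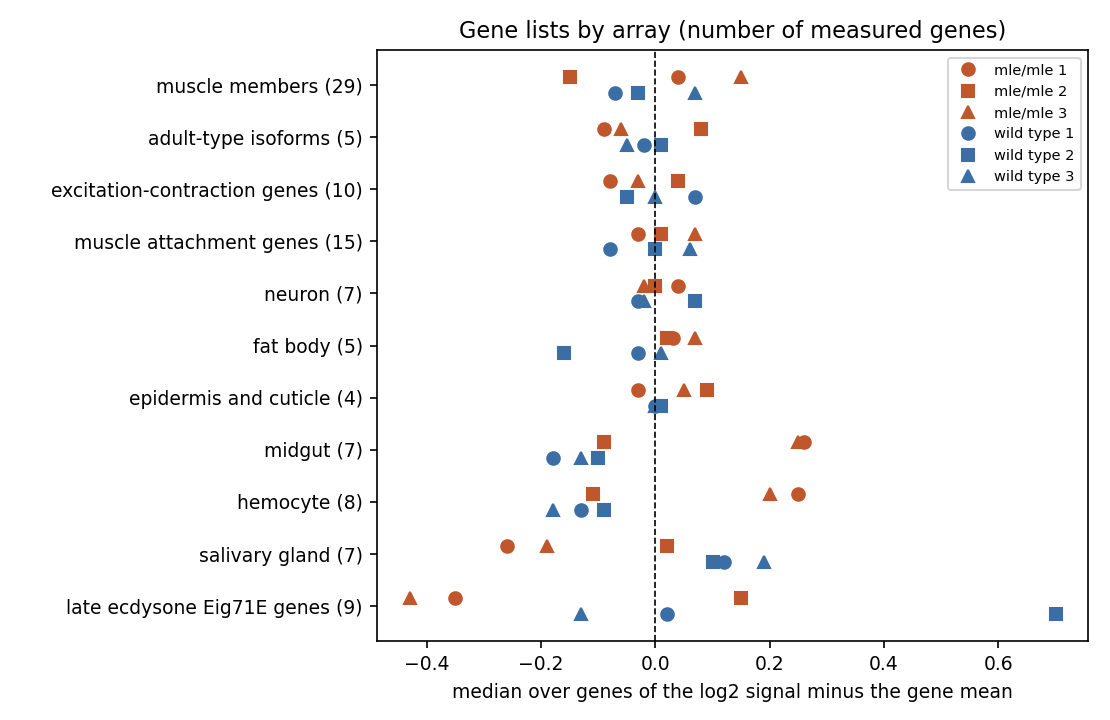
Median over the genes of each list of the log2 signal minus the gene's mean, 1 symbol per array, with mle/mle above wild type in each row. The medians of muscle members, midgut and hemocyte genes are lower on mle/mle replicate 2 than on the other mle/mle arrays, and that of Eig71E genes is higher there.

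Other muscle genes were read from lists of the pathway. None of the measured genes of the 6 lists below (10, 10, 15, 7, 15 and 3 genes) was called. Without correction, 2.98% of all probe sets had a limma p under 0.05 with a positive change, and 1.35% with a negative change. Among the genes of the 6 lists 1 reached this level, with a negative change. That gene was l(2)efl, a small heat shock protein gene, which read 11.69, 11.55 and 11.61 in mle/mle, against 11.91, 11.73 and 11.95 in wild type. The groups did not overlap, but the change of -0.25 failed the correction (SE 0.09, adjusted p = 0.8322 by limma). In the same list of 10 sarcomere and chaperone genes, 5 changes were positive, the highest being 0.14 for the actin severing protein gene Gel. The groups of Gel did not overlap either, with 8.88, 8.90 and 8.99 in mle/mle against 8.74, 8.80 and 8.82 in wild type. Groups free of overlap were seen in 8.36% of all probe sets. Of 10 excitation and contraction genes 3 were positive, from -0.11 for the calcium sensor Stim to 0.07 for the calcium release channel RyR.

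Of 15 attachment genes 9 were positive, from -0.08 for the tendon gene Tsp to 0.35 for the collagen gene vkg. vkg read 8.67, 8.30 and 8.92 in mle/mle, against 8.15, 8.53 and 8.16 in wild type, and its change of 0.35 was not called (SE 0.17, adjusted p = 0.9997 by limma). Leaving out mle/mle replicate 3 gave 0.20 and leaving out mle/mle replicate 2 gave 0.52 (adjusted p = 0.236 by limma). Only without replicate 2 of both groups, among the settings run, was vkg called, higher by 0.64 (adjusted p = 0.00862 by limma). Of 7 genes of the dystrophin complex 6 were positive, from -0.10 for Syn2 to 0.15 for the sarcoglycan gene Scgdelta. Of 15 genes of myoblast fusion and muscle identity 6 were positive, from -0.17 for the flight muscle selector salm to 0.10 for the actin regulator Vrp1. Of 3 non-muscle actin and myosin genes 2 were positive, from -0.18 for the light chain Mlc-c to 0.09 for profilin, encoded by chic. On the centred scale, mle/mle replicate 2 was not low in these lists. Its array median was 0.02 for the other sarcomere genes, against -0.07 and 0.01 on mle/mle replicates 1 and 3, and 0.04 for excitation and contraction, against -0.08 and -0.03. It was also the highest of the mle/mle arrays for the dystrophin complex (0.12), fusion and identity (0.07) and non-muscle actin and myosin (0.10), and the middle one for attachment (0.01). The medians of change lay between -0.011 and 0.059, against 0.007 over all probe sets.

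Since mle acts on the male X chromosome, the members were also read by chromosome. On X lie up, Actn, if and mys, with changes of 0.13, 0.03, -0.12 and -0.12 and a median of -0.043. A negative change was seen in 2 of these 4, against 62.2% of 1763 X genes. On the large autosome arms 12 of 24 members were negative, against 43.3% of 8982 genes, with a median of 0.005 for members and 0.014 for all genes.

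In the authors' PLIER table, which holds the same arrays under another signal model, limma again called 0 of the 29 genes, against 0.0286% of all probe sets in either direction. There 17 changes were positive, with a median of 0.043. Its column names carry 2 array codes, each with equal numbers of both groups. Within the code of 4 arrays the median over members was -0.003, within the code of 2 arrays it was 0.14, and a fit with the code as block gave 0.043. On the RMA values, the fit with replicate number as block called 0 of the 29 (0.043% of all probe sets), and a filter that dropped dim probe sets kept 24 members and called 0 of them (0.0716% of the probe sets it kept).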

How the data were processed

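The members and gene lists were chosen with earlier results of these data known. The main values are log2 signals per probe set that the authors deposited, which the submitters' processing notes credit to RMA, with version and settings not given in the sources used here. A second table the authors deposited holds log2 signals of the PLIER model (offset 16, per the file headers), and its columns show the group but not the replicate. Of 14010 probe sets, 44 array controls were left out. The platform annotation gave 12442 probe sets 1 symbol, updated through RefSeq (Release 6 plus ISO1 MT).

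Two-sided tests used limma 3.58.1 (lmFit, eBayes; R 4.3.3), and p-values were adjusted by Benjamini-Hochberg over 13966 probe sets. All members were named, with the extremes of each companion list and member probe sets that differed in sign or by over 0.3. The labels do not say what equal replicate numbers share. Same-numbered arrays deviated together (correlations 0.17, 0.284 and 0.521), while the other pairs of 1 array per group had correlations from -0.414 to 0.014. On these same data the numbers in the titles were taken to pair the arrays. The main fit held the group only and left this pairing out, and the fit with replicate number as block used it. The script was tested on simulated data. The number of arrays limits the precision. Figures were drawn with matplotlib 3.10.9.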

Additional observations from a re-analysis of the deposited data

How the results depend on the processing

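The count of members called was 0 under PLIER, the replicate block, the dim filter, quantile normalization, autosomal centring, the mean over probe sets and on leaving out any single array (0 to 0), and was 1 without replicate 2 of both groups. That setting called SERCA (0.46), probe set 147264_at of Zasp52 (0.78) and vkg (0.64), and turned the uncalled changes of Act87E to 0.19, Prm to 0.16, fln to 0.04 and tn to -0.08. The median change of members lay between -0.048 and 0.085, and the adult-type minus larval-type difference between -0.156 and 0.142, when single arrays were left out. The replicate block changed no call, with a smallest adjusted p of 0.715 by limma and a median of 0.013. Other turned signs all belonged to uncalled changes. PLIER, with or without the array code as a block, gave 0.02 for Act87E, 0.08 for Act88F, 0.15 for fln and -0.01 for Actn. Within the array code of 4 arrays, added after seeing the data, Act88F was 0.04, Tm2 -0.06, bt -0.03, fln 0.24, Actn -0.15, Argk1 -0.03 and tmod 0.01. The mean over probe sets gave -0.02 for bt and 0.02 for sls. Quantile normalization gave -0.04 for Act79B, -0.02 for Mlc2, -0.05 for Tm2 and -0.05 for Actn. Leaving out single arrays turned 21 members, with ranges of -0.06 to 0.13 for Act79B, -0.09 to 0.16 for Act87E, -0.06 to 0.03 for Act88F, -0.18 to 0.22 for Actn, -0.04 to 0.32 for Argk1, 0.00 to 0.33 for Mlc1 and -0.02 to 0.11 for Mlc2. They were -0.02 to 0.07 for Mlp60A, -0.47 to 0.03 for Mlp84B, -0.01 to 0.11 for Msp300, -0.17 to 0.15 for Prm, -0.14 to 0.25 for Tm2, -0.13 to 0.02 for TpnC4 and -0.14 to 0.05 for TpnC41C. They were -0.12 to 0.25 for bt, -0.17 to 0.10 for fln, -0.24 to 0.01 for mys, -0.13 to 0.08 for sls, -0.06 to 0.05 for tmod, -0.08 to 0.21 for tn and -0.06 to 0.35 for up. Over all probe sets limma called 8, and 4 with PLIER, 1 with the array code as a block, 0 within the code of 4 arrays, 145 without mle/mle replicate 2, 453 without replicate 2 of both groups, and 0 without mle/mle replicate 1 or 3 or wild type replicate 1 or 3. The cause of these shifts was not tested. Changes of dim probe sets are compressed by RMA, and 5 members fell below the dim filter.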
